A study of Mus musculus with 18 samples.

Results

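The 34 genes described here make up a hypoxia and glycolysis set: 13 enzymes of glycolysis, 3 carriers of glucose or lactate, 3 regulators of glycolytic and mitochondrial carbon flow, the oxygen sensing genes Hif1a, Egln1 and Egln3, and 12 further targets of the hypoxia-inducible factors. They were chosen by symbol, and each gene was read from its brightest probe set, the one with the highest mean log2 signal over all arrays. A probe set that carried exactly 1 gene symbol was found for 31 of the 34, and all 31 were among the 11238 genes tested. Gpi1, Eno1 and Bnip3l had no such probe set and were not analysed here.

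The RNA came from preantral and small antral follicles, the growing egg-bearing units of the ovary, of C57BL/6Ntac mice aged 6 to 8 weeks. Follicles of 7 mice were pooled and divided over cultures with vehicle or with recombinant anti-Müllerian hormone (AMH) at 50 or 200 ng/mL, for 24 or 12 h, so that each pool gave 1 array per dose. There were 3 pools at each time, 6 groups of 3 arrays and 18 arrays in all. All cultures, vehicle included, also contained FSH at 80 IU/L and LH at 10 IU/L, and each array was made from 5 ng of amplified RNA. No genotype other than this strain was used, and a pool, not an animal, is the replicate.

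AMH is a hormone of the TGF-beta superfamily that granulosa cells of growing follicles secrete and that restrains follicle recruitment and the response to FSH. In most cells, hydroxylase enzymes such as Egln1 and Egln3 use oxygen to mark hypoxia-inducible factor alpha subunits for destruction, and when oxygen is short the stabilised factor dimerises with Arnt and switches on glycolytic enzymes, glucose and lactate carriers and Vegfa. In the ovary, granulosa cells carry out much of the follicle's glycolysis and pass pyruvate to the oocyte, which uses glucose poorly, and the follicle has no blood vessels inside its basement membrane.

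The AMH 50 ng/mL array of pool 3 at 12 h was left out of the fits, except for an alternative with all 18 arrays. Across probe sets on the log2 scale it correlated with each remaining array at Pearson r of 0.604 to 0.624, against 0.904 to 0.992 among the other 17. Its hybridisation controls averaged 35724 signal units, against 1724 to 4237 on the other arrays. The AMH 200 ng/mL array of the same pool stayed in, although its median correlation of 0.920 was the lowest of the 17, so results at 12 h are also given without that pool. Over all 18 arrays, 10 of 10 measured granulosa cell markers and 14 of 15 measured oocyte markers passed the intensity filter, which is set on the mean signal. Measured markers of surface epithelium (11 of 11), endothelium (11 of 13), leukocytes (10 of 13) and theca (7 of 8) passed it too. The filter therefore does not set follicle cells apart from other ovarian cells, while none of 3 measured red blood cell markers passed. A mean over arrays does not show that a cell type was present in each culture. At 12 h the summed oocyte marker signal ran from 392 to 9704 in vehicle and from 367 to 9275 under AMH 200. In such mixed RNA, fewer cells of a type and less RNA per cell cannot be told apart.

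Promoter windows from RefSeq (build GRCm38.p6) reach from 250 bases before to 50 bases after a gene's start, 300 bases in all. They are shown for the 4 genes that lead the comparison of AMH 200 ng/mL with vehicle at 12 h, since these genes share a low level there. The letters marked were ACGTG, a form of the core to which hypoxia-inducible factors are known to bind, on both strands. Capitals mark each match (CACGT where it lies on the other strand). The other form, GCGTG, was counted on both strands but is not marked. Where a gene has several windows, the most upstream is printed.
Aldoc, chr11:78322823-78323122, plus strand: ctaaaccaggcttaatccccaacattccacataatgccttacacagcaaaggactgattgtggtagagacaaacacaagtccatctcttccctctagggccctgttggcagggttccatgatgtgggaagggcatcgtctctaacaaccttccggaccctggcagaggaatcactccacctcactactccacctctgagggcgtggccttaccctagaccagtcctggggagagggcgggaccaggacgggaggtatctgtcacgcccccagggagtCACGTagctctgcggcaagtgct
Slc16a3, chr11:120948817-120949116, plus strand: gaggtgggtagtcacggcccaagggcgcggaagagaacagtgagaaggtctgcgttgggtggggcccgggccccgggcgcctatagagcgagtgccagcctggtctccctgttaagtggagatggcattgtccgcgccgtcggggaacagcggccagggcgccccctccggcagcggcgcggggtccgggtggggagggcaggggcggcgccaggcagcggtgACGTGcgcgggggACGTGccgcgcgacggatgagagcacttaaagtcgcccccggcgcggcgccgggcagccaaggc
Egln1, chr8:124949205-124949504, minus strand: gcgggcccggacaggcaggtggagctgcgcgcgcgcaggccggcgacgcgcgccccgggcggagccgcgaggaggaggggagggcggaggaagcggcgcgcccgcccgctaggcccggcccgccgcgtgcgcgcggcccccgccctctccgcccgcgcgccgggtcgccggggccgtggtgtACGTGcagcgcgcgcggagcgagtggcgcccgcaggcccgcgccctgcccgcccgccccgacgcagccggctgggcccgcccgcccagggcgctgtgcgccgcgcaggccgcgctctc
Pdk1, chr2:71872974-71873273, plus strand: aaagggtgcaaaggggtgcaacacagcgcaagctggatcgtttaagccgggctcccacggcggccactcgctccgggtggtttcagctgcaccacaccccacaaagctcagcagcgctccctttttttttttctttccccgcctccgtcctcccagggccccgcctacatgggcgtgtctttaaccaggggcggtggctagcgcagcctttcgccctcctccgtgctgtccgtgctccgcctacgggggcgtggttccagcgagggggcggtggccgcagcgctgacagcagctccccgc

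Slc16a3 had 2 matches, at bases -27 to -23 and -14 to -10 counted from the start of the gene. Egln1 had 1 match, at bases -68 to -64, and Aldoc had 1, on the other strand at bases 28 to 32 after the start. Neither window of Pdk1 held ACGTG. The form GCGTG occurred 2 times in the printed window of Pdk1, 2 times in that of Aldoc, 1 time in that of Egln1 and 0 times in that of Slc16a3. Over all genes with a window, 25 of 38 windows of the measured members held ACGTG (65.8%), against 6447 of 32851 windows of all genes (19.6%). With either form the counts were 32 of 38 (84.2%) against 14380 of 32851 (43.8%). A match describes the letters and is not evidence of binding in these cells, and the list holds many genes already known as targets of these factors.

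The first comparison asked how follicles differed after 12 h with AMH at 200 ng/mL. Slc16a3, Aldoc, Pdk1, Egln1 and Vegfa had lower signals than vehicle in each of the 3 pools. On their chosen probe sets, enzymes of lower glycolysis and Hif1a had fitted differences near 0. The median log2 difference over the 31 genes was -0.24, against -0.07 over all genes tested, and 19 of 31 had a fitted difference below 0, against 58.9% of all genes. All log2 differences are of signal plus 16, which understates the differences of dim genes. Single genes were tested with limma, with the pool as a block, with Benjamini-Hochberg adjustment over 22518 probe sets. No probe set passed an adjusted p of 0.05 (0 of 22518, 0.00%), and 2565 (11.4%) had an unadjusted p under 0.05. At the unadjusted threshold 9 members were lower and 0 higher, against 8.15% lower and 3.00% higher of all genes tested.

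Slc16a3 encodes the lactate exporter MCT4. Its signal was 183, 889.5 and 135 in AMH 200 cultures of pools 1, 2 and 3, against 1109, 1392 and 468 in vehicle cultures of the same pools at 12 h. Pools 1 and 3 were low under AMH, and the AMH culture of pool 2 lay above the vehicle culture of pool 3, so the groups overlap. The fitted log2 difference was -1.61 (SE 0.37), with an unadjusted p of 0.000873 and an adjusted p of 0.432 in limma. Of the glucose importers, the widespread Slc2a1 had a difference of 0.14 and the high-affinity Slc2a3 -0.57.

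Aldoc encodes aldolase C, which splits fructose bisphosphate. Its signal was 181, 289.8 and 55.7 in the AMH 200 cultures at 12 h, against 468, 464 and 175 in vehicle. The AMH culture was the lower one in each pool, but the vehicle signal of pool 3 was below the AMH signals of pools 1 and 2. The fitted difference was -1.12 (SE 0.21), with an unadjusted p of 0.00016, the smallest of any member, and the same adjusted p of 0.432 in limma. Its ubiquitous relative Aldoa, read from a probe set that may also bind related transcripts, had a difference of 0.10.

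The other glycolytic enzymes differed among themselves in size. Pfkl, the liver-type phosphofructokinase, had -0.73, and the hexokinases Hk1 and Hk2, which trap glucose as its phosphate, had -0.58 and -0.39. In contrast Pgk1 had 0.08, Pgam1 0.00, Pkm 0.12 and Ldha 0.03, all of them enzymes of lower glycolysis. These values combine pools of opposite sign. Pools 1, 2 and 3 were at -0.19, -0.08 and 0.50 for Pgk1 and -0.09, -0.13 and 0.22 for Pgam1. They were at 0.08, -0.14 and 0.43 for Pkm and -0.15, -0.06 and 0.29 for Ldha. The 3 probe sets of Pgk1 ran from -0.43 to 0.08. Tpi1 had -0.18 and Pfkp, the platelet-type phosphofructokinase, -0.39. Over the 11 measured enzymes the median was -0.18, and 3 had an unadjusted p under 0.05.

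Pdk1 encodes the kinase that shuts the pyruvate dehydrogenase complex and so keeps pyruvate from the mitochondria. Its signal was 58.1, 273 and 37.4 under AMH 200 at 12 h, against 312, 310.3 and 109.5 in vehicle. Pools 1 and 3 showed the low AMH values, pool 2 differed by only -0.17, and the groups overlap because vehicle was already low in pool 3. In the fit the difference was -1.18 (SE 0.37), unadjusted p 0.00717 in limma. Pfkfb3, which makes the allosteric activator of phosphofructokinase, had -1.03, with pools at -1.12, 0.13 and -2.09. Its relative Pfkfb4 had -0.20 and was the only member whose 3 AMH signals all lay below the 3 vehicle signals, against 2.46% of all genes. No member lay wholly above vehicle (1.13% of all genes).

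Egln1 encodes the oxygen-sensing hydroxylase PHD2 and is itself a target of the factor it degrades. Its signal was 543, 597 and 401 under AMH 200 at 12 h, against 1018, 850.0 and 553 in vehicle. All pools had the lower value under AMH, and the vehicle culture of pool 3 lay inside the AMH range. The fitted difference was -0.61 (SE 0.19), unadjusted p 0.00735 in limma. For Hif1a, the regulated alpha subunit, the signal was 2088, 3218 and 2907 under AMH 200 and 2608, 3637 and 1941 in vehicle. It was lower under AMH in pools 1 and 2 and higher in pool 3, with a fitted difference of 0.03 (SE 0.19). Egln3, another hydroxylase, had -0.17, with pools at -1.25, -0.41 and 1.15.

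Vegfa, the vascular growth factor, had signals of 195, 453 and 201 under AMH 200 at 12 h, against 599, 525 and 409 in vehicle. Pools 1 and 3 were low under AMH, pool 2 was closer to its vehicle culture (-0.21), and the groups overlap. Its fitted value was -0.91 (SE 0.29), unadjusted p 0.00807 in limma. Ndrg1, a hypoxia-induced gene linked to differentiation and stress, had 437, 951 and 864 under AMH 200 and 833, 1183 and 614 in vehicle. It was lower under AMH in pools 1 and 2 and higher in pool 3, with a fitted difference of -0.24 (SE 0.30). Among the remaining targets, the ankyrin repeat gene Ankrd37 had -0.73 and the carbonic anhydrase gene Car9, which had 903 signal units in the AMH culture of pool 3 and 166 in its vehicle culture, had 0.71.

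**Figure D1:**
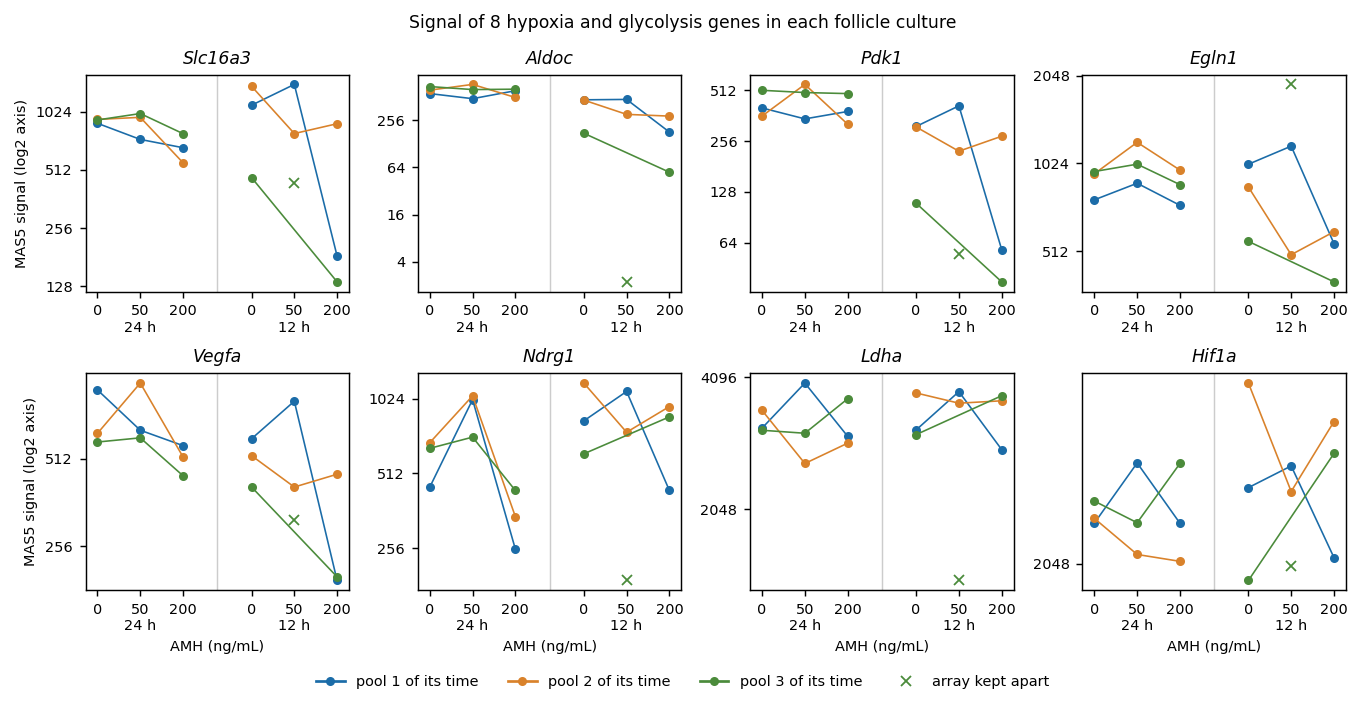
MAS5 signal (log2 axis) of 8 genes on each array, against AMH dose at 24 h and at 12 h; points of a pool are joined, and a cross marks the array kept apart. At 12 h the Slc16a3 signals of pools 1 and 3 were 183 and 135 at 200 ng/mL, and at 24 h Ndrg1 was lower at 200 ng/mL than at 50 ng/mL and vehicle in every pool.

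The pools differed among themselves. The median over the 31 genes was -0.47, -0.17 and 0.22 in pools 1, 2 and 3, while the median over all genes was 0.00, 0.01 and -0.22. In pool 1, 25 of 31 genes were lower under AMH 200, in pool 2 26, and in pool 3 15. Of all 11238 genes tested, 5599, 5432 and 6877 were lower in pools 1, 2 and 3. Across pools, 9 of 31 were lower in all 3 pools and 0 higher, against 13.6% and 9.09% of all genes. Without pool 3 the median was -0.35 with 30 of 31 below 0, and without pool 1 it was 0.02 with 15 below 0. With quantile normalization 29 of 31 were below 0, with a median of -0.32, against -0.03 over all genes. Without pool 2, Slc16a3 (-2.09) and Aldoc (-1.36) passed the adjusted threshold in limma, each with an adjusted p of 0.0445. That fit called 22 of 22518 probe sets. It left out the pool in which both genes differed least from vehicle (-0.64 for Slc16a3 and -0.65 for Aldoc).

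Markers of other cells also differed at the same dose and time, but not alike in the 3 pools. Endothelial markers were lower in 10 of 11 (median -0.43), with summed signals of 1602 to 2529 under AMH 200 and 1604 to 5910.4 in vehicle. Their pool medians were -0.36, 0.80 and -1.83 in pools 1, 2 and 3, and in pool 2 only 1 of 11 was lower. Surface epithelium markers were higher in 11 of 11 (median 0.42), with sums of 5865 to 18014 against 4544 to 7694. Here too pool 2 had the opposite sign, with pool medians of 0.42, -0.28 and 1.59 and 9 of 11 lower in pool 2. Granulosa markers were lower in 8 of 10 (median -0.21), with sums of 5733 to 8126 against 5282 to 8962. No marker was at 0, none of these counts rests on an adjusted p under 0.05, and their part in the values of the hypoxia and glycolysis genes was not tested.

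Genes near the set showed a partly similar picture. Of 22 other hypoxia-inducible factor targets, 18 were below 0 (median -0.22) and 7 were lower at an unadjusted p under 0.05, against 58.9% and 8.15% of all genes. They included Plod1, a collagen lysyl hydroxylase, at -0.57 (SE 0.18), Lox, which cross-links collagen, at -1.27 (SE 0.41), and Mxi1, a MYC antagonist, at -0.84 (SE 0.30). Of 10 other genes of glycolysis and monocarboxylate transport, 4 were below 0, with Eno2, the neuronal enolase, at -0.89 (SE 0.28) and Pfkm, the muscle-type phosphofructokinase, at -0.39 (SE 0.16). Of 6 pentose phosphate pathway genes, 5 were above 0. Of 7 partners of the oxygen sensing system, including Arnt, Vhl and Epas1, 0 were below and 0 above at an unadjusted p under 0.05 in limma.

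At 50 ng/mL and 12 h the 2 usable pools had medians of opposite sign. The median over the 31 genes was 0.20 and -0.35 in pools 1 and 2, with 4 and 27 of 31 genes below vehicle. Of all 11238 genes tested, 5619 and 5515 were below vehicle in these pools. Only 4 genes were lower and 4 higher in both, against 27.3% and 28.2% of all genes. The fitted median was -0.04, against -0.04 over all genes, and since the AMH 50 array of pool 3 is missing, a fitted value here is not the mean of both pool differences but also draws on the AMH 200 and vehicle arrays of pool 3. Limma called no probe set (0 of 22518, 0.00%), and 1285 (5.71%) had an unadjusted p under 0.05. Of the members 1 was lower and 0 higher at that threshold, against 4.10% and 2.40% of all genes, and 17 had a fitted difference below 0, against 56.5%. Of the vehicle cultures of pools 1 and 2, none reached the AMH 50 signals of Pgk1 and Pgam1, 2 of 31 members against 12.3% of all genes, and no member lay wholly below (13.1% of all genes). On the array kept apart, the median difference from vehicle was -1.10 over the 31 genes and -0.78 over all genes. There 25 of 31 members and 7264 of all 11238 genes were below 0.

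Adm, the vasodilator peptide adrenomedullin, had the smallest unadjusted p at this dose and time. Its signals were 165 and 1517 under AMH 50 in pools 1 and 2, against 1107, 1661 and 1390.3 in vehicle in pools 1, 2 and 3. The single low array was the AMH 50 culture of pool 1, and its companion in pool 2 lay inside the vehicle range. The fitted difference was -1.23 (SE 0.46), unadjusted p 0.0191 in limma, while over the 2 probe sets of Adm the fitted differences ran from -1.23 to 0.44. Without pool 1 the value was 0.13.

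Slc2a3 had 201 and 113 under AMH 50 in pools 1 and 2, against 183, 233 and 409.8 in the 3 vehicle cultures at 12 h. Pool 1 was slightly above and pool 2 below its vehicle culture, for a fitted difference of -0.75 (SE 0.45). Aldoc had 473 and 305 under AMH 50 (vehicle values above) and a fitted difference of -0.36 (SE 0.25). Ero1a, an oxidase of protein folding in the endoplasmic reticulum, had 765 and 674 under AMH 50 and 709.5, 1207 and 559.6 in vehicle, with -0.27 (SE 0.23). In each of these genes pool 1 lay at or above vehicle and pool 2 below it. The genes followed at both doses showed the same split: Slc16a3 had 1422 and 791, Pdk1 414 and 223, Vegfa 807 and 409, Ndrg1 1094 and 749.5 and Hif1a 2794 and 2576 signal units under AMH 50 in pools 1 and 2. Oocyte markers were lower in 14 of 14 at this dose (median -0.87). Their sums were 2197 to 6368 under AMH 50 in pools 1 and 2. Over all 3 vehicle cultures, pool 3 included, the sums were 392 to 9704, so the 2 ranges are not of the same pools. The part of oocyte markers in the values was not tested.

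**Figure D2:**
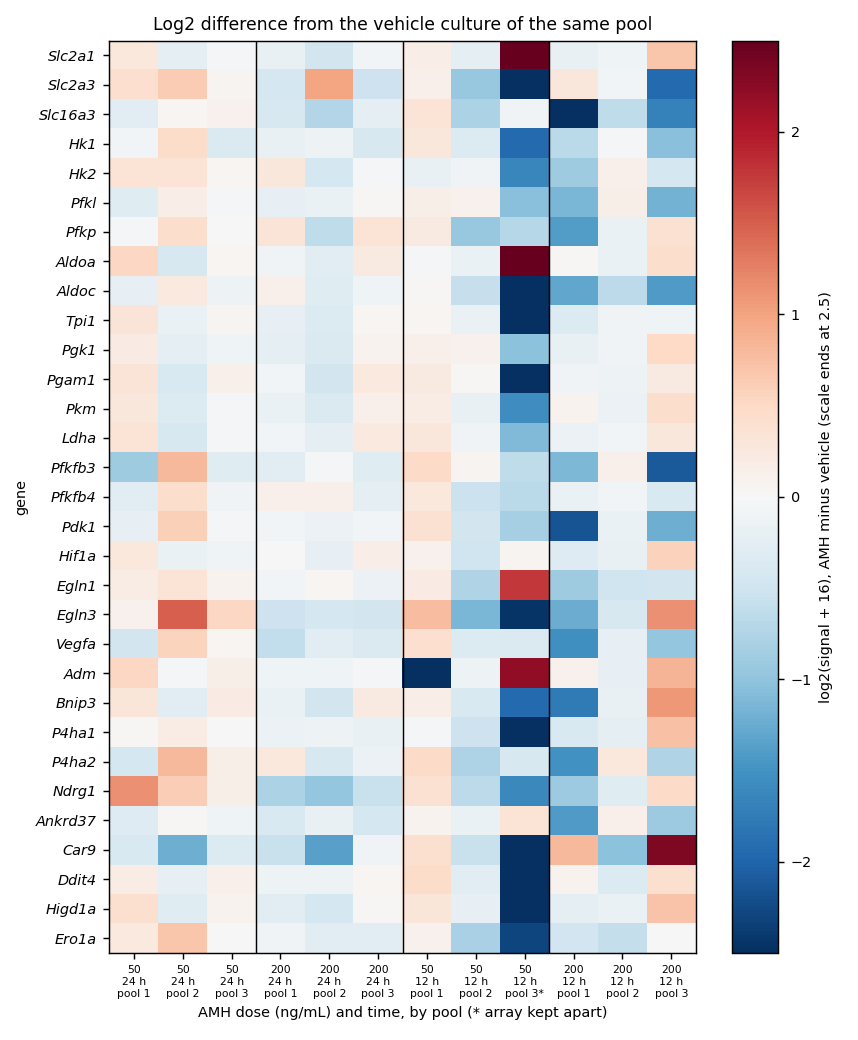
Log2 difference in signal plus 16 between each AMH culture and the vehicle culture of its pool, for the 31 genes, with colours from -2.5 (blue) to 2.5 (red). In the columns of 200 ng/mL at 12 h, Slc16a3 reads -2.50, -0.64 and -1.68 in pools 1, 2 and 3, and in those of 50 ng/mL at 12 h most genes are above 0 in pool 1 and below 0 in pool 2.

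After 24 h with AMH at 200 ng/mL the differences from vehicle were small and nearly all of 1 sign. Of the 31 genes, 28 had a fitted difference below 0, against 47.6% of all genes, and the median was -0.13, against 0.01 over all genes. The pool medians were -0.16, -0.26 and -0.07 in pools 1, 2 and 3, and 13 of 31 genes were lower in all 3 pools with 0 higher, against 12.7% and 15.9% of all genes. Limma called no probe set (0 of 22518, 0.00%), and 374 (1.66%) had an unadjusted p under 0.05. One member, Ndrg1, was lower at that unadjusted threshold and none higher, against 1.32% and 0.623% of all genes.

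Ndrg1 had signals of 254, 343 and 437 under AMH 200 at 24 h, against 450.5, 680.2 and 646 in vehicle. All 3 AMH cultures were below all 3 vehicle cultures. The fitted difference was -0.77 (SE 0.30), unadjusted p 0.0249 and adjusted p 0.99999 in limma. Slc16a3, Slc2a1 and Vegfa were the other members without overlap, 4 of 31 against 3.23% of all genes, and none lay wholly above vehicle (4.50% of all genes).

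Vegfa had 568, 519 and 447 under AMH 200 at 24 h, against 882, 626 and 584 in vehicle, and each AMH value lay below the lowest vehicle value. Its fitted difference was -0.42 (SE 0.29), unadjusted p 0.171 in limma. Slc16a3 had 668, 558 and 790.1 under AMH 200 and 894, 936 and 930.4 in vehicle, with a fitted difference of -0.46 (SE 0.37), against -1.61 at 12 h. The glucose importer Slc2a1 had 1615, 1458 and 1759 under AMH 200 and 1826, 2019 and 1849.7 in vehicle, with -0.24 (SE 0.18). None of these 3 genes had an unadjusted p under 0.05.

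Car9, a carbonic anhydrase of the cell surface, had 116, 174 and 181 under AMH 200 at 24 h, against 177, 468 and 192 in vehicle. Pool 2 set the size of the difference, -0.66 (SE 0.44), since its vehicle culture was far above the other 5, and the groups overlap. Pdk1 had 383, 322 and 489 under AMH 200 and 402, 360.3 and 512 in vehicle, with -0.09 (SE 0.37). Hif1a had 2329, 2063 and 2816 under AMH 200 and 2329.9, 2365 and 2499 in vehicle, with -0.01 (SE 0.19), and both of these genes overlap between groups. Of the 11 glycolytic enzymes 10 were below 0, with a median of -0.10 and a lowest value of -0.24. The pools did not agree on this: their medians were -0.08, -0.35 and 0.08, with 8, 11 and 3 enzymes lower in pools 1, 2 and 3.

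Beside these values, leukocyte markers were lower in 10 of 10 (median -0.85), with sums of 541 to 1421 under AMH 200 and 1157 to 2698 in vehicle. Surface epithelium markers were lower in 11 of 11 (median -0.62), with sums of 3485 to 4537 against 4749 to 8606. Granulosa markers had a median of 0.10, and the part of these cells in the values was not tested. Of the related lists, 22 other hypoxia targets had a median of -0.06 and 10 other glycolysis genes -0.04. Pdk4, a starvation-induced kinase with the same target as Pdk1, stood at 0.69 (SE 0.21) with pools at 0.95, 1.02 and 0.11, unadjusted p 0.00608 in limma. All 6 pentose phosphate genes were below 0 (median -0.14), with Rpia, which isomerises ribose phosphate, at -0.34 (SE 0.15). In pool 3, however, only 1 of the 6 was lower, and their median there was 0.05.

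**Figure D3:**
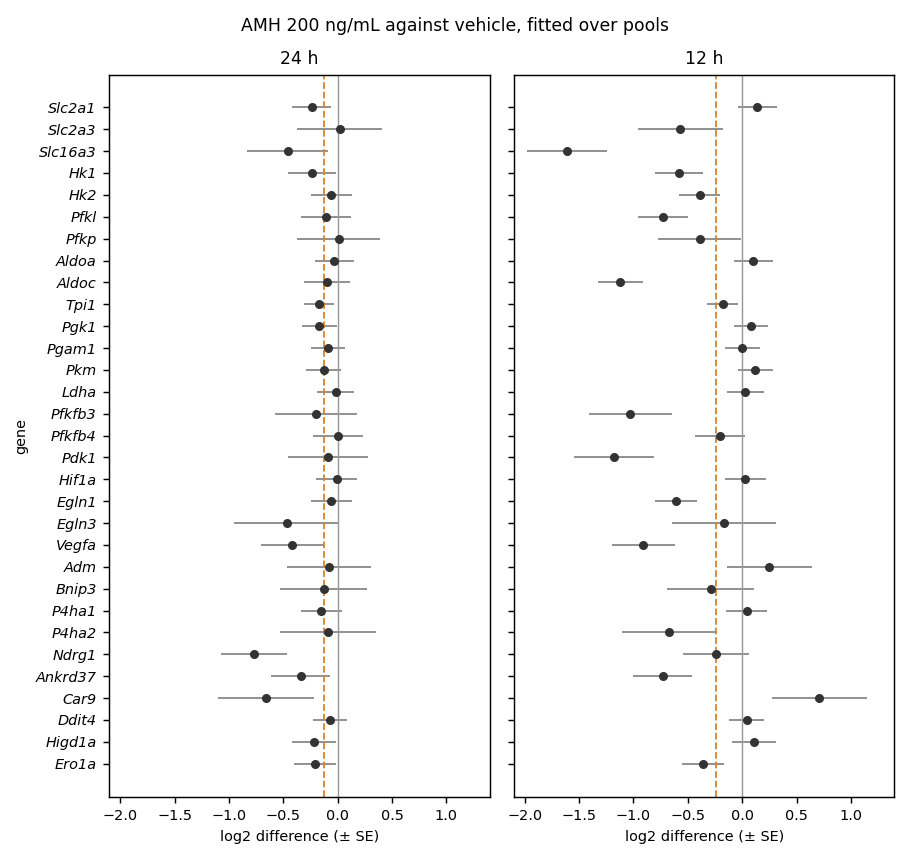
Fitted log2 difference (point) and its standard error (bar) of each gene, AMH 200 ng/mL against vehicle, at 24 h and at 12 h; the dashed line is the median of the 31 genes, -0.13 at 24 h and -0.24 at 12 h. At 24 h the values spread from -0.77 to 0.02, and at 12 h from -1.61 to 0.71.

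At 50 ng/mL and 24 h the signs were mixed. The median over the 31 genes was 0.05, against 0.00 over all genes, with pool medians of 0.19, 0.16 and 0.00 in pools 1, 2 and 3. Of 31 genes, 21 were above 0 and 10 below, against 49.1% of all genes below 0, and 5 were higher and 1 lower in all 3 pools, against 11.8% and 11.7% of all genes. After centring each array on its median, 3 of 31 were below 0, with all genes shifted to a median of 0.11. Limma called no probe set (0 of 22518, 0.00%), and 607 (2.70%) had an unadjusted p under 0.05. No member did, against 2.74% lower and 0.409% higher of all genes.

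Ndrg1 had 1014, 1050.5 and 716 under AMH 50 at 24 h, against the vehicle values given above, and all 3 AMH 50 cultures lay above all 3 vehicle cultures. In the fit this was a difference of 0.63 (SE 0.30), unadjusted p 0.0552 in limma. Slc2a3 and Hk2 were the other members without overlap, 3 of 31 against 3.26% of all genes, and none lay wholly below vehicle (3.10% of all genes). Egln3 had 89.9, 394 and 255 under AMH 50 and 82.5, 129 and 174 in vehicle, higher in each pool, with a fitted difference of 0.71 (SE 0.48) and overlapping groups.

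Ero1a had 537, 741 and 626 under AMH 50 at 24 h and 451, 451 and 628 in vehicle, with 0.31 (SE 0.19) carried by pools 1 and 2. Car9 had 132, 191 and 147 under AMH 50, lower than vehicle in each pool, with -0.66 (SE 0.44). For the genes followed throughout, the AMH 50 signals at 24 h were 738, 959.9 and 1004 for Slc16a3 and 346, 555 and 496 for Pdk1. They were 641, 932 and 604 for Vegfa and 2821, 2109 and 2333 for Hif1a. Their fitted differences from vehicle were -0.04 for Slc16a3, 0.12 for Pdk1, 0.05 for Vegfa and 0.00 for Hif1a, each smaller than its standard error.

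Markers of several other cell types were lower at this dose and time. Oocyte markers were below 0 in 14 of 14 (median -0.92), 10 of them at an unadjusted p under 0.05, with sums of 889.9 to 4162 under AMH 50 and 1571 to 7004 in vehicle. Surface epithelium markers were below 0 in 11 of 11 (median -0.79), with sums of 3749 to 4441 against 4749 to 8606. Leukocyte markers were below 0 in 10 of 10 (median -0.69), with sums of 649.9 to 1574 against 1157 to 2698. None passed the adjusted threshold, and the part of these cells in the values was not tested.

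In the direct comparison of doses at 24 h nearly all genes had the same sign. Of 31 genes, 30 had a fitted difference below 0 at 200 ng/mL relative to 50 ng/mL, against 48.8% of all genes, and the median was -0.21, against 0.01 over all genes. The pool medians were -0.27, -0.31 and -0.04 in pools 1, 2 and 3, and 14 of 31 genes were lower in all 3 pools with 0 higher, against 12.4% and 15.1% of all genes. This comparison shares its AMH 200 and AMH 50 arrays with the 2 comparisons against vehicle at 24 h. Limma called no probe set (0 of 22518, 0.00%), 938 (4.17%) had an unadjusted p under 0.05, and 3 members did, all lower, against 1.32% lower and 3.02% higher of all genes.

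Ndrg1 led, with 254, 343 and 437 at 200 ng/mL against 1014, 1050.5 and 716 at 50 ng/mL. The 2 groups did not overlap, and the pool differences were -1.93, -1.57 and -0.69. The fitted difference was -1.40 (SE 0.30), unadjusted p 0.000476 and adjusted p 0.999 in limma, and all 5 tested Ndrg1 probe sets were below 0, from -1.40 to -0.98. With weights for array quality, the fitted difference was -1.01 with an adjusted p of 0.0181 in limma. That fit called 513 of 22518 probe sets for this comparison. Its weights did not converge, and they gave 25.89 to the AMH 50 array of pool 3.

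Ero1a had 424, 374 and 510.3 at 200 ng/mL against 537, 741 and 626 at 50 ng/mL, again without overlap, with a fitted difference of -0.52 (SE 0.19) and an unadjusted p of 0.0189 in limma. Egln3 had 52.7, 91.9 and 122 against 89.9, 394 and 255, lower at 200 ng/mL in each pool, and the highest value at 200 ng/mL lay above the lowest at 50 ng/mL. Its fitted difference was -1.17 (SE 0.48), unadjusted p 0.0289 in limma. Tpi1, triose phosphate isomerase, had 1899.7, 1770.1 and 2112 against 2773, 2014 and 2125, with -0.25 (SE 0.14) and overlapping groups. With Vegfa and Adm, 4 of 31 members were without overlap and lower at 200 ng/mL, against 4.71% of all genes, and none lay wholly higher (4.87% of all genes).

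By role, the medians for 200 against 50 ng/mL at 24 h were -0.35 for the 3 carriers, -0.11 for the 11 enzymes and -0.26 for the 3 oxygen sensing genes. Of 22 other hypoxia targets 17 were below 0 (median -0.15), with Hilpda, a lipid droplet gene, at -0.45 (SE 0.22). The pool medians of these targets were 0.01, -0.42 and 0.02, with 11, 18 and 10 of 22 lower in pools 1, 2 and 3. Of 10 other glycolysis genes 8 were above 0, with pool medians of 0.27, -0.05 and -0.04. Neither list thus had the same sign in all 3 pools. Oocyte markers were higher at 200 than at 50 ng/mL in 14 of 14 (median 0.93), with sums of 1393 to 6393 at 200 ng/mL and 889.9 to 4162 at 50 ng/mL. Theca markers were lower in 7 of 7 (median -0.55), with sums of 7346 to 8932 against 7847 to 13126, and pool medians of -0.77, 0.06 and -0.38. The part of these cells was not tested.

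**Figure D4:**
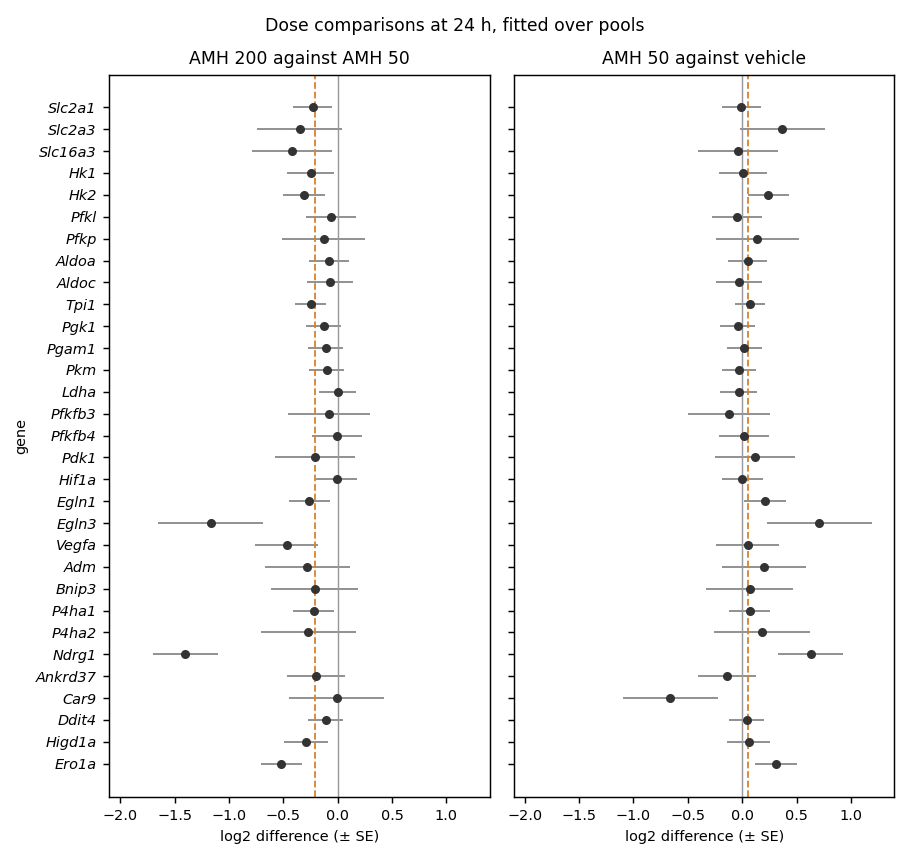
Fitted log2 difference (point) and its standard error (bar) of each gene at 24 h, for AMH 200 against 50 ng/mL and for AMH 50 ng/mL against vehicle; the dashed line is the median of the 31 genes, -0.21 and 0.05. Ndrg1 stands at -1.40 in the panel of doses and 0.63 in the panel against vehicle.

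Whether the response to 200 ng/mL differed between the times was tested as the difference from vehicle at 24 h minus that at 12 h. The median of this value was 0.15 over the 31 genes and 0.08 over all genes. Of the members, 17 were above 0 and 14 below, against 41.7% of all genes below 0. Aldoc had 1.02 (SE 0.30), unadjusted p 0.00481, with differences from vehicle of -0.10 at 24 h and -1.12 at 12 h. Slc16a3 had 1.15 (SE 0.53) and Pdk1 1.09 (SE 0.52), both nearer to vehicle at 24 h, and Car9 had -1.37 (SE 0.62). Their size depended on the pools used: without pool 1 Slc16a3 had 0.68 and Pdk1 0.59, and without pool 2 they had 1.77 and 1.63. Car9 had -0.84 without pool 3 and -0.55 without only the 12 h arrays of pool 3. Leaving out a pool here dropped its number at both times, although pools of the same number at 24 and 12 h are of different mice. Limma called no probe set (0 of 22518, 0.00%), and 1619 (7.19%) had an unadjusted p under 0.05. At that threshold 1 member was below 0 and 2 above, against 2.88% and 4.47% of all genes, and the smallest adjusted p of a member was 0.627. The sign of the median depended on the setting. Without pool 1 it was -0.09 with 19 of 31 below 0, and with a filter at the 75th percentile -0.01 with 13 of 26, whereas quantile normalization left 7 below 0 and leaving out the 12 h arrays of pool 3 left 8.

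**Figure D5:**
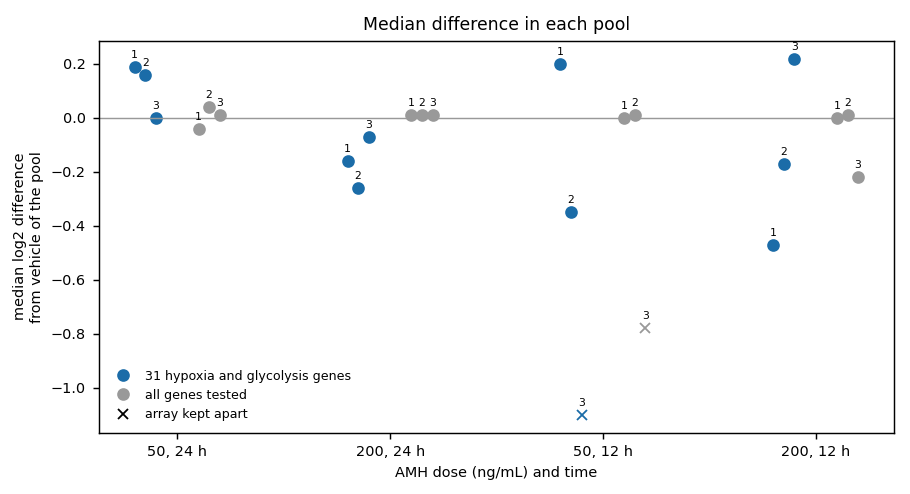
Median log2 difference from the vehicle culture of the same pool, for the 31 genes (blue) and all 11238 genes tested (grey), at each dose and time; numbers name the pool and crosses the array kept apart. The medians of the set at 200 ng/mL were -0.16, -0.26 and -0.07 at 24 h and -0.47, -0.17 and 0.22 at 12 h in pools 1, 2 and 3.

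In the absence of AMH, vehicle cultures of 24 h were set against those of 12 h, which came from other pools. The median over the 31 genes was -0.03, against 0.00 over all genes, with 18 below 0 and 13 above. Limma called 292 of 22518 probe sets (1.30%), none of them that of a member, and the smallest adjusted p of a member was 0.171. At an unadjusted p under 0.05, 3 members were lower and 2 higher, against 8.98% and 11.4% of all genes. At 24 h 3 members lay wholly below and 2 wholly above the 12 h cultures, against 12.4% and 13.9% of all genes.

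P4ha1, a collagen prolyl hydroxylase, had 760.5, 753 and 990.2 at 24 h against 1149.9, 1647 and 1038 at 12 h, with no overlap and a difference of -0.59 (SE 0.20). Slc2a3 had 174, 108 and 172 at 24 h against 183, 233 and 409.8 at 12 h, with -0.75 (SE 0.31), and Egln3 had 82.5, 129 and 174 against 179, 276 and 183, with -0.69 (SE 0.28). These 3 were the lower ones. Aldoc had 562, 622 and 691 at 24 h against 468, 464 and 175 at 12 h, with 0.85 (SE 0.34), and Pdk1 had 402, 360.3 and 512 against 312, 310.3 and 109.5, with 0.88 (SE 0.36). Both were higher at 24 h without overlap, and in both the vehicle culture of pool 3 at 12 h was the lowest of the 6. Without the pools numbered 3 at both times the differences were 0.33 for Aldoc and 0.28 for Pdk1. That of Slc2a3 was -0.44 without only the 12 h array of pool 3. Without the pools numbered 2 at both times that of P4ha1 was -0.33. Granulosa markers were higher at 24 h in 9 of 10 (median 0.89), 2 of which, Foxl2 and Fshr, passed the adjusted threshold. Their summed signal was 11783 to 12364 at 24 h and 5282 to 8962 at 12 h, and their part in the values was not tested.

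Where a gene had several tested probe sets, they did not always share a sign. Of 19 such members, all probe sets had 1 sign in 18 for AMH 200 against 50 ng/mL at 24 h and in 17 for 200 ng/mL against vehicle at the same time. The count was 13 for AMH 200 ng/mL at 12 h, 13 for AMH 50 ng/mL at 24 h and 7 for AMH 50 ng/mL at 12 h. At 200 ng/mL and 12 h, all 3 tested probe sets of Pdk1 were below 0, from -1.33 to -0.99, and the 2 of Vegfa ran from -0.91 to -0.68. The 2 of Pfkfb3 shared a sign but ran from -1.03 to -0.24. For Hif1a only 1 of 4 probe sets had the sign of the chosen one (-0.48 to 0.03). For Pgk1 (-0.43 to 0.08) and Higd1a (-0.76 to 0.11) it was 1 of 3. Adm (-0.24 to 0.25), P4ha1 (-0.30 to 0.04) and Aldoa (-0.06 to 0.10) were mixed too. The chosen probe sets of Aldoa, Adm and Ndrg1 are of a design that may bind related sequences, and many glycolytic enzymes have processed pseudogenes, so the share of signal from the named gene alone is uncertain for them.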

How the data were processed

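RNA from 18 follicle cultures was hybridised to Affymetrix mouse arrays. The deposited values are signal intensities, made by the authors with MAS5 per the submitters' processing notes (version not given in the sources used here). They are linear, with a 2% trimmed mean of 150 on each array. They were used as deposited. After setting aside 64 control probe sets, tests covered 22518 of 45101 probe sets, those whose mean log2 intensity exceeded the 50th percentile, and a p under 0.05 after Benjamini-Hochberg adjustment was called. Symbols came from the array annotation, which gave 1 symbol to 34945 probe sets, several to 932 and none to 9160.

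AMH comparisons used 17 arrays in limma 3.58.1 (R 4.3.3; lmFit, eBayes with trend) on log2(intensity + 16), two-sided, with the pool as a block and 7 residual degrees of freedom. The time comparison used the 6 vehicle arrays. Pairing comes from the labels' protocols. Deviations of arrays from their group means correlated at a median of 0.252 within a pool (0.0674 to 0.497, n = 16) and -0.128 between pools (n = 32). Centring on group means ties the between-pool value to the within-pool one with opposite sign, so it is not a separate comparison. Descriptions of the 12 h AMH samples give 24 h, while titles and source give 12 h, which was used. Lists were described by counts and medians, without a list test. The fit was tested on simulated data with known changes.

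The members and the lists were chosen with earlier results of these data known. Genes named were Slc16a3, Pdk1, Vegfa, Ndrg1 and Hif1a, the 4 members with the smallest unadjusted p in a comparison, other members by their difference, and up to 3 genes of another list. Alternatives changed the block, pseudocount (1, 50), normalization, filter, arrays in the fit, array weights, probe sets per gene and pools. Promoter windows came from RefSeq. Replicates within a group are separate pools of mice. Pools are numbered within each time, and leaving out a pool dropped its number at both times unless only 12 h arrays are named. Plots used matplotlib 3.10.9 (python 3.11.15). Some genes are not reported here.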

Additional observations from a re-analysis of the deposited data

Results flagged for a closer look

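Hk2, which traps glucose in the cell, had differences of opposite sign at AMH 50 ng/mL. Its log2 difference from vehicle was 0.24 (SE 0.19) at 24 h, higher in 3 of 3 pools (0.34, 0.34 and 0.05). At 12 h it was -0.14 (SE 0.23), lower in both usable pools (-0.19 and -0.08). The signals were 795, 885 and 753 under AMH 50 and 626, 695 and 728 in vehicle at 24 h, and 563 and 495 under AMH 50 and 642, 524 and 489.8 in vehicle at 12 h. Neither difference from vehicle had an unadjusted p under 0.05 in limma (0.232 at 24 h and 0.539 at 12 h). Of all genes, 11.8% were higher in 3 of 3 pools at 24 h and 27.3% lower in both usable pools at 12 h. The difference between the times was not tested.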

How the results depend on the processing

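Apart from the exceptions named here, medians of the 31 genes moved by less than the spread between pools, and single genes kept their direction and their side of the threshold, under a pseudocount of 1 or 50, quantile normalization, median centring, no filter or a filter at the 75th percentile, arrays of 1 time only, array weights, the mean of all probe sets of a gene, and with each pool left out in turn. That holds for 99 of the recomputed medians, with 2 that moved by more. It holds for 730 of the recomputed gene values, while 53 turned in sign and 3 passed the adjusted threshold. Some could not change: at 24 h no array is missing. There the fitted differences stay the same with the 18th array, without the block or with arrays of 1 time only. The median at AMH 50 ng/mL was -0.48 at 12 h with the 18th array included, and 0.15 at 24 h with median centring, where all genes moved by about as much. Left-out pools moved the median at AMH 200 ng/mL from -0.17 to -0.08 at 24 h, and from -0.35 to 0.02 at 12 h, where pool 1 decides its sign. That of the 24 h minus 12 h response turned to -0.09 without pool 1 and to -0.01 with the 75th percentile filter. Medians near 0 turned as well, at AMH 50 ng/mL and 12 h to 0.10 with median centring and 0.31 without pool 2, and for vehicle at 24 h against 12 h to 0.02 with quantile normalization, 0.01 with the mean of all probe sets and 0.02 without pool 2. Members passed the adjusted threshold in 3 instances: Slc16a3 and Aldoc at AMH 200 ng/mL and 12 h without pool 2, and Ndrg1 for 200 against 50 ng/mL at 24 h with array weights.

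Counts of probe sets called moved most with array weights, which run from 0.14 to 25.89, did not converge, and are not relied on. They gave 1011 for AMH 50 ng/mL and 8 for AMH 200 ng/mL at 24 h, 513 for 200 against 50 ng/mL and 778 for vehicle at 24 h against 12 h. With arrays of the same time only, 1 was called for AMH 50 ng/mL at 24 h. Vehicle at 24 h against 12 h gave 156 with a pseudocount of 1, 60 with no filter, 132 above the 75th percentile, and 0 to 555 with 1 vehicle array or pool left out, the highest without the 12 h arrays of pool 3. Leaving out pools gave 0 to 22 at AMH 200 ng/mL (the highest without pool 2) and 0 to 1 at AMH 50 ng/mL for 12 h.

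Without the replicate block, which the labels support because a pool was divided over the doses, the median at AMH 50 ng/mL and 12 h was 0.10 and no other median changed. The sign then turned for Slc16a3 0.24, Pdk1 0.43, Hif1a 0.02 and Aldoc 0.16 (AMH 50 ng/mL at 12 h).

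Sign changes elsewhere were mostly of values near 0, and their cause was not tested. They were Vegfa -0.10 and Ndrg1 -0.63 (AMH 50 ng/mL at 12 h) with all 18 arrays; Hif1a 0.07 (AMH 200 ng/mL at 24 h), Hif1a 0.07 (200 against 50 ng/mL at 24 h), Hif1a -0.17 (AMH 200 ng/mL at 12 h), Pdk1 0.03 (AMH 50 ng/mL at 12 h), Hif1a 0.24 (the 24 h minus 12 h response) with quantile normalization; Slc16a3 0.06 (AMH 50 ng/mL at 24 h), Pdk1 0.10 and Hif1a 0.08 (AMH 50 ng/mL at 12 h), Slc16a3 -0.07 (vehicle at 24 h against 12 h) with median centring; Slc16a3 0.03 and Hif1a -0.10 (AMH 50 ng/mL at 24 h), Hif1a 0.02 (AMH 200 ng/mL at 24 h), Hif1a 0.12 (200 against 50 ng/mL at 24 h), Hif1a -0.24 (AMH 200 ng/mL at 12 h), Ndrg1 -0.05 (AMH 50 ng/mL at 12 h), Hif1a 0.26 (the 24 h minus 12 h response), Slc16a3 -0.12 (vehicle at 24 h against 12 h) with array weights; and Hif1a -0.10 (AMH 50 ng/mL at 24 h), Hif1a 0.06 (AMH 200 ng/mL at 24 h), Hif1a 0.15 (200 against 50 ng/mL at 24 h), Hif1a -0.16 (AMH 200 ng/mL at 12 h), Hif1a 0.21 (the 24 h minus 12 h response), Hif1a 0.04 (vehicle at 24 h against 12 h) with the mean of all probe sets. Pools left out also turned signs. For AMH 50 ng/mL at 24 h the ranges were Slc16a3 -0.12 to 0.07, Hif1a -0.13 to 0.09, Pdk1 -0.12 to 0.28 and Vegfa -0.20 to 0.30. For 200 against 50 ng/mL at 24 h the ranges were Hif1a -0.15 to 0.12 and Pdk1 -0.39 to 0.06. For AMH 200 ng/mL at 12 h the ranges were Ndrg1 -0.61 to 0.09 and Hif1a -0.25 to 0.20. For AMH 50 ng/mL at 12 h the ranges were Vegfa -0.54 to 0.56, Ndrg1 -0.45 to 0.73, Adm -2.45 to 0.13, Slc16a3 -1.06 to 0.56, Pdk1 -0.72 to 0.62, Hif1a -0.31 to 0.32 and Ero1a -0.68 to 0.22. For AMH 200 ng/mL at 24 h the ranges were Hif1a -0.10 to 0.09. For vehicle at 24 h against 12 h the ranges were Hif1a -0.39 to 0.10 and Slc16a3 -0.44 to 0.33. For the 24 h minus 12 h response the ranges were Hif1a -0.21 to 0.24. The fit without all 12 h arrays of pool 3 was chosen after seeing the data. The number of arrays limits the precision, with a median SE of 0.204 at AMH 200 ng/mL and 24 h.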
